A study of Mus musculus with 15 samples.

Results

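Gene 5′ ends that lay under H3K4me1 in both kinds of expanded potential stem cells (EPSCs) but not in embryonic stem cells (ESCs) were examined. A start site was the 5′ end of a protein-coding gene in the GENCODE M1 annotation of the mouse mm9 build. It was selected when its first base lay inside an H3K4me1 peak of D-EPSCs and of L-EPSCs and outside every H3K4me1 peak of ESCs. This held for 3273 of 22322 start sites (14.7%), which are called EPSC-marked start sites below. They were chosen by the H3K4me1 lists, so their H3K4me1 values are given as a description with no test.

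The study collected chromatin immunoprecipitation sequencing (ChIP-seq) for H3K4me1 and H3K27ac in mouse cells, in 15 samples, 2 for each mark in each state and 1 input for each state. ESCs were the J1 line, labelled as strain 129SV, grown in serum with LIF and with CHIR99021 and PD0325901, which inhibit GSK3 and MEK. D-EPSCs were grown in N2B27 and serum replacement with LIF, CHIR99021, dimethindene maleate and minocycline. L-EPSCs were grown in serum replacement medium with LIF, CHIR99021, PD0325901, A-419259, XAV939, JNK inhibitor VIII and SB203580. All 3 states therefore received LIF and CHIR99021, and PD0325901 was shared by ESCs and L-EPSCs only. Both EPSCs had been converted from ESCs and were kept without feeder cells before the experiment. Each mark and state was represented by 1 list of peak positions without scores, so replicates could not be compared for any difference below, and the read depth behind a peak is unknown. The H3K4me1 lists were alike in number of peaks (102751 to 107222) but not in covered bases. They covered 221, 187 and 173 Mb in ESCs, D-EPSCs and L-EPSCs. The H3K27ac list of ESCs (64342 peaks) was longer than those of D-EPSCs (32782) and L-EPSCs (26966). As a check of the cell type, H3K27ac lay at the first base of 18, 14 and 16 of 30 listed pluripotency factors in ESCs, D-EPSCs and L-EPSCs. The shares in the same order were 21.5%, 24.4% and 17.4% over all start sites. Over those with a CpG-rich promoter (defined below) they were 33.4%, 44.8% and 31.5%, so the D-EPSC count was close to that of CpG-rich promoters.

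H3K4me1 is a methylation of histone H3 that marks enhancers and the shoulders of promoters. At the start of an active gene with a CpG-rich promoter, H3K4me3 usually occupies the centre and H3K4me1 flanks it, which leaves a gap in H3K4me1 over the start itself. Start sites of repressed or poised genes, and those with few CpGs, can instead lie directly under H3K4me1. H3K27ac is an acetylation found at active promoters and enhancers. H3K4me3 was not analysed here.

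The 200 bases before 8 of the EPSC-marked start sites are printed to show the range of CpG content, from a single CpG to a dense CpG island, and to show promoters of different acetylation. All were read from the NCBIM37 genome, which is mm9, and run 5′ to 3′ along the strand of the gene up to the base before its start. None overlaps an annotated exon. Capitals mark CpG dinucleotides. Grhl3, Evc, Cnn2 and Sfxn3 lie deepest under EPSC H3K4me1 in their sets (defined below), apart from genes with an exon in this window. Pou5f1 and Prdm14 are pluripotency factors. T and Aldoc, a germ layer gene and a glycolysis gene, were added after their values were seen.

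Grhl3 (chr4:135129546-135129745, minus strand): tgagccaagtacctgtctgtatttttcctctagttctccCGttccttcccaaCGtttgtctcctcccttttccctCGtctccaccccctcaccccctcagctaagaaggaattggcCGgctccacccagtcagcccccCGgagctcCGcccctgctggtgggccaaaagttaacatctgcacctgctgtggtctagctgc
Evc (chr5:37728134-37728333, minus strand): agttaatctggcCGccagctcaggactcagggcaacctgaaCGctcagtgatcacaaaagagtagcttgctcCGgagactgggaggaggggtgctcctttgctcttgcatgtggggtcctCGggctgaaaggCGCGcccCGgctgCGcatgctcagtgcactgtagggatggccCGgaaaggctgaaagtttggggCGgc
Cnn2 (chr10:79451129-79451328, plus strand): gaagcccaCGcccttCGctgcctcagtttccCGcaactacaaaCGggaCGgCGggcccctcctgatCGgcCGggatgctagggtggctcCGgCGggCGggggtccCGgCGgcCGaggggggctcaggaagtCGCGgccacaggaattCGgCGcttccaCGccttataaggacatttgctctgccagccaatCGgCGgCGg
Sfxn3 (chr19:45121891-45122090, plus strand): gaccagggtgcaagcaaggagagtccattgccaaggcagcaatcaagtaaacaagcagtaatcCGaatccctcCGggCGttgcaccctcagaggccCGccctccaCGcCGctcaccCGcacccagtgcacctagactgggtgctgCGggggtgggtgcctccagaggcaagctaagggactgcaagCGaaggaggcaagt
Pou5f1 (chr17:35642782-35642981, plus strand): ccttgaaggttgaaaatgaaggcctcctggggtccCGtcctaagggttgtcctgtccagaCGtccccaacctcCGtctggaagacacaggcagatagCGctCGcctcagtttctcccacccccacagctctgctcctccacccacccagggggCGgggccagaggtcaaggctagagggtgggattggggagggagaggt
Prdm14 (chr1:13117245-13117444, minus strand): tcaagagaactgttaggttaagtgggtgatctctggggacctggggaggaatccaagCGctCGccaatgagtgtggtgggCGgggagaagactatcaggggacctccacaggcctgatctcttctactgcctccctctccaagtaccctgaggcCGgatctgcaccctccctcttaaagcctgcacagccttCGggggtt
T (chr17:8627088-8627287, plus strand): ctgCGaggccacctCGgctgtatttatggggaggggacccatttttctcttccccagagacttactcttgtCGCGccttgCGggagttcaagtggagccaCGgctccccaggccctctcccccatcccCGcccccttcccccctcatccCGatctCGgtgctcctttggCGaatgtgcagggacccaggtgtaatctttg
Aldoc (chr11:78136270-78136469, plus strand): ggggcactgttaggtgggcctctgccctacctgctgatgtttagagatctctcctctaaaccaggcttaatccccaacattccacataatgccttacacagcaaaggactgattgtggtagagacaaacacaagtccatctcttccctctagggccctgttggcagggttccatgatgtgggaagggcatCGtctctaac

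The Cnn2 window held 22 CpGs and was 69.0% G or C. Evc and T each had 10 CpGs, Sfxn3 had 9, and Grhl3 and Pou5f1 each had 6. Prdm14 had 5 CpGs, and the Aldoc window held 1 CpG at 51.0% G or C.

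The first question was what surrounded these start sites in ESCs. In the lists as deposited, the larger part lay in a gap of ESC H3K4me1. An ESC H3K4me1 peak lay within 2 kb on both sides of 1786 of the 3273 start sites (54.6%), on the upstream side alone at 408 and on the downstream side alone at 488. Among start sites under H3K4me1 in no state, 5772 of 14417 were flanked in this way. The flanked share rested on narrow ESC peaks, and was 18.5% when only the widest 50% of each list was kept and 11.6% with lists of equal covered bases. At 591 (18.1%) no ESC peak lay within 2 kb, and at 503 (15.4%) none lay within 5 kb. In the 1786 flanked start sites the upstream ESC peak ended a median of 294 bp from the first base, and the downstream peak began a median of 690 bp from it. The flanking ESC peaks had median widths of 1032 bp upstream and 1333 bp downstream. ESC coverage over all EPSC-marked start sites had 2 shoulders, of 52.2% at 600 bp upstream (position -600) and 45.6% at 1100 bp downstream.

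**Figure D1:**
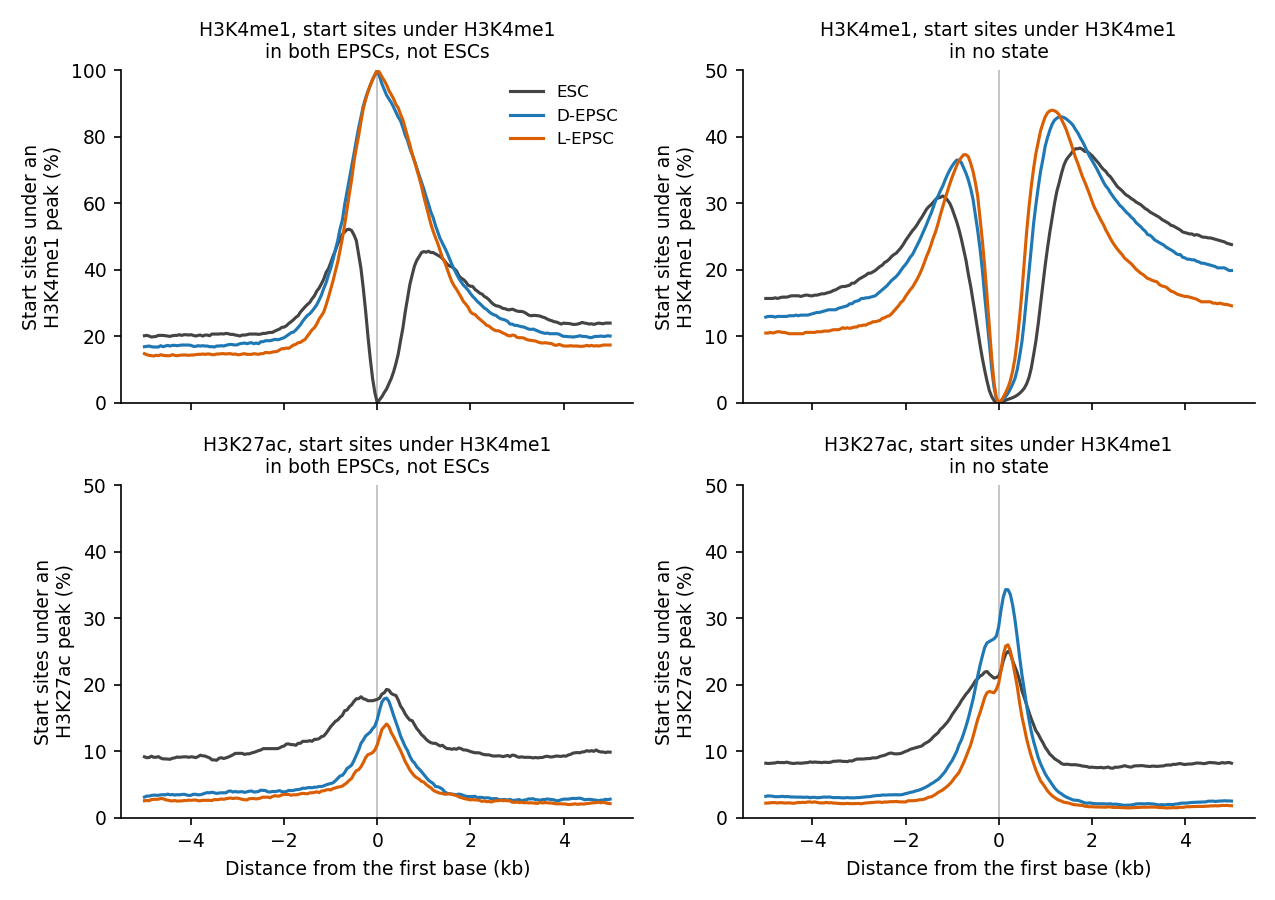
Share of start sites covered by a peak (y axis, percent; the upper left panel runs to 100% and the others to 50%) against distance from the first base (x axis, kb), for H3K4me1 (top) and H3K27ac (bottom) over the 3273 EPSC-marked start sites (left) and the 14417 start sites under H3K4me1 in no state (right). Lines stand for ESCs, D-EPSCs and L-EPSCs. The values of 0% and 100% at the first base follow from the selection. ESC H3K4me1 has shoulders on either side of both sets, closer together on the left, and the EPSC shoulders on the right lie nearer to the first base than those of ESCs.

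In EPSCs the gap was usually spanned by a single peak. A single D-EPSC peak reached both flanking ESC peaks at 1526 of the 1786 flanked start sites (85.4%), a single L-EPSC peak did so at 1570 (87.9%), and both did at 1476 (82.6%). The EPSC peaks over all 3273 start sites had median widths of 2199 bp and 2042 bp in D-EPSCs and L-EPSCs. Within 1 kb of the first base on either side, a window of 2001 bp, H3K4me1 covered a mean of 593 bp, 1564 bp and 1546 bp in ESCs, D-EPSCs and L-EPSCs. The selection fixes the centre of this window, so the direction follows in part from it. Over all start sites the means were 416 bp, 724 bp and 799 bp. Some start sites were close to the limit of the selection. The end of an ESC peak lay within 50 bp of 130 of them, and 159 lay within 50 bp of the end of an EPSC peak. On the other side of the limit, 112 start sites covered in all 3 states lay within 50 bp of the end of their ESC peak. The remaining 2992 start sites lay more than 50 bp from every such end.

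The ESC gaps over EPSC-marked start sites were narrower than those at start sites that H3K4me1 covered in no state. The median gap was 1048 bp (quartiles 826 and 1356 bp) at the 1786 flanked EPSC-marked start sites and 1784 bp (1466 and 2148 bp) at 5772 flanked start sites under H3K4me1 in no state. Start sites marked in L-EPSCs alone lay between, at 1295 bp, as did those marked in D-EPSCs alone, at 1244 bp. The share of flanked start sites that were EPSC-marked fell as the gap widened. It was 72.0% of 1114 start sites with an ESC gap of 501 to 1000 bp, 22.4% of 2792 with 1001 to 1500 bp, 8.86% of 2721 with 1501 to 2000 bp, 5.96% of 1526 with 2001 to 2500 bp and 2.49% of 683 with 2501 to 4000 bp. The gap was also narrower in EPSCs where it did not close. At 5592 start sites under H3K4me1 in no state that were flanked in all 3 states, the median gap was 1784 bp, 1171 bp and 962 bp in ESCs, D-EPSCs and L-EPSCs. The gap was narrower than in ESCs at 99.2% of them for D-EPSCs and 99.5% for L-EPSCs. The gap depends on where a caller ends a peak and on which peaks it joins, and the part of the peak calls in these widths was not tested.

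**Figure D2:**
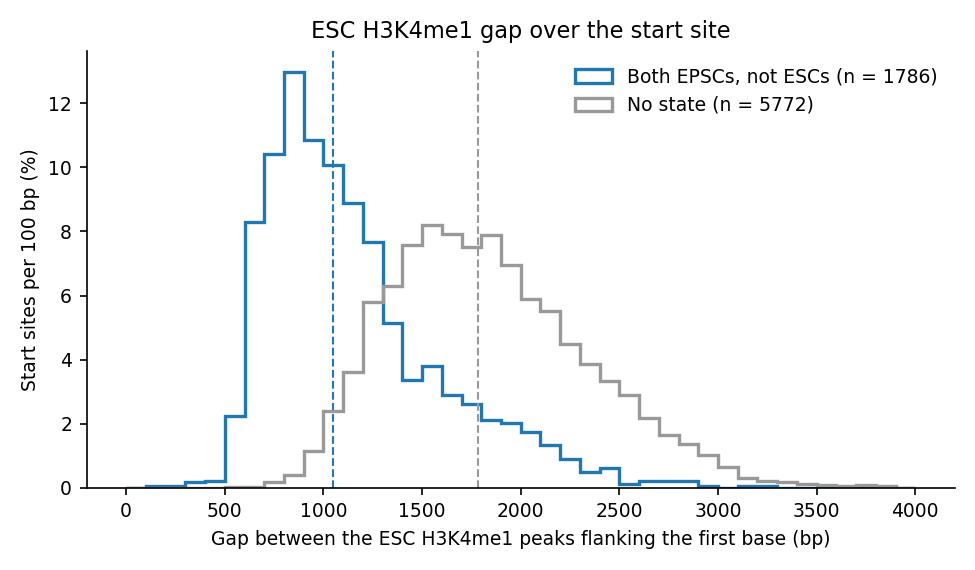
Distribution of the ESC H3K4me1 gap over start sites with an ESC peak within 2 kb on both sides. The x axis is the gap in bp and the y axis the percent of start sites per 100 bp, for 1786 EPSC-marked start sites and 5772 start sites under H3K4me1 in no state. Dashed lines mark the medians of 1048 bp and 1784 bp.

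H3K27ac was not used in the selection, and most EPSC-marked start sites had none in any state. Of the 3273, 2533 (77.4%) had no H3K27ac peak at the first base in any list, beside 67.6% of the start sites under H3K4me1 in no state. H3K27ac lay at the first base of 582 (17.8%), 486 (14.8%) and 359 (11.0%) in ESCs, D-EPSCs and L-EPSCs. Over all start sites the shares were 21.5%, 24.4% and 17.4%. In D-EPSCs and L-EPSCs the acetylated share of EPSC-marked start sites was thus below that of start sites under H3K4me1 in no state (28.7% and 20.2%) and above that of start sites under H3K4me1 in all 3 states (12.0% and 9.92%). In such bulk samples, a mark in fewer cells and less of it per cell cannot be told apart. The order of the states depended on the length of the lists. When the lists of each mark were shortened to their widest peaks in equal number and the start sites chosen again (3274), EPSC-marked start sites were acetylated at 13.4%, 14.0% and 11.0% in ESCs, D-EPSCs and L-EPSCs. With equal covered bases (3635 start sites) the shares were 3.52%, 8.17% and 10.3%, in the opposite order. The contrast with start sites under H3K4me1 in no state was kept in both EPSCs, since these were at 28.3% and 20.1% with equal numbers and at 18.6% and 19.9% with equal bases. That with start sites covered in all 3 states turned with equal bases, where these were at 11.5% and 12.9%. In ESCs the share at start sites in no state was 2.63% with equal bases, below that of EPSC-marked start sites.

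**Figure D3:**
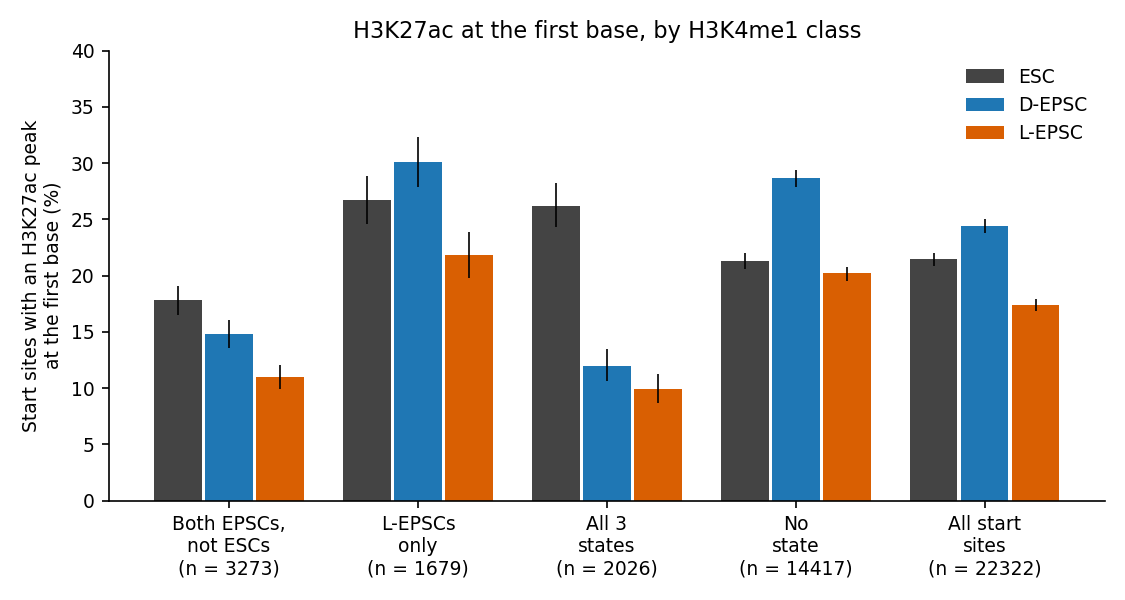
Share of start sites with an H3K27ac peak at the first base (y axis, percent, from 0) for 5 sets of start sites by H3K4me1 class (x axis), in ESCs, D-EPSCs and L-EPSCs. Bars are the share, and lines are exact 95% binomial (Clopper-Pearson) intervals, which cover the counting of start sites and not variation between samples. EPSC-marked start sites (left) stand at 17.8%, 14.8% and 11.0%, and start sites under H3K4me1 in no state at 21.3%, 28.7% and 20.2%.

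Acetylation in both EPSCs and not in ESCs was found at 41 EPSC-marked start sites (1.25%), beside 3.52% of all start sites. Acetylation in ESCs and in neither EPSC was found at 183 (5.59%), beside 4.69% of all start sites. Acetylation in all 3 states was found at 247 (7.55%), beside 12.2% of all start sites. The split between ESCs alone and EPSCs alone turned with the length of the lists. With lists of equal number, 121 EPSC-marked start sites were acetylated in ESCs alone and 72 in both EPSCs alone, and with equal covered bases 26 and 134, of 3274 and 3635 start sites that met the selection in those lists. Acetylation in both EPSCs alone was less frequent than over all start sites in each case. All start sites then had 6.03% and 9.42%, and EPSC-marked start sites 3.69% with equal bases. Acetylation in ESCs alone lay near the share over all start sites in each case, slightly above it, and the differences were not tested. EPSC-marked start sites had 3.70% beside 2.98% of all start sites with equal number, and 0.715% beside 0.618% with equal bases. Of the 582 acetylated in ESCs, acetylation was shared by D-EPSCs at 353 (60.7%) and by L-EPSCs at 293 (50.3%). These shares were 74.3% and 60.8% over all start sites, and 86.0% and 70.1% where H3K4me1 lay in no state. They were lower, at 37.7% and 31.6%, where H3K4me1 lay in all 3 states. In the other direction, 72.6% of EPSC-marked start sites acetylated in D-EPSCs and 81.6% of those in L-EPSCs were acetylated in ESCs. Over all start sites these were 65.4% and 74.9%. Sharing was computed with the lists as deposited only. Acetylation was more frequent beside ESC flanks, as it was at other start sites. At the 1786 start sites with ESC H3K4me1 on both sides, the acetylated shares were 26.8%, 21.5% and 16.2% for ESCs, D-EPSCs and L-EPSCs. At the 503 with no ESC peak within 5 kb, the shares were 1.39%, 1.79% and 1.59%. The same split was wider at start sites under H3K4me1 in no state, where 43.6%, 59.7% and 41.9% of flanked start sites and 0.119%, 0.220% and 0.0847% of those with no ESC peak within 5 kb were acetylated.

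EPSC-marked start sites had an intermediate to high CpG content. A promoter was called CpG-rich when the 501 bp around its first base had a CpG observed over expected ratio above 0.6 and a GC content above 55%. By this definition 56.7% of EPSC-marked start sites were CpG-rich, beside 44.5% of all start sites, 43.9% of those under H3K4me1 in no state and 17.9% of those covered in all 3 states. Start sites marked in L-EPSCs alone had a share of 69.4%, and of the 250 under H3K4me1 in ESCs alone, 1 was CpG-rich. The contrast with start sites on the whole depended on the threshold. With a CpG ratio above 0.75, 32.1% of EPSC-marked start sites were CpG-rich, beside 32.9% of all start sites, 36.4% of those under H3K4me1 in no state and 6.17% of those covered in all 3 states. With 500 bp on either side and a ratio above 0.6, the shares were 44.9%, 38.5%, 40.3% and 12.4% in the same order. The median CpG ratio was 0.67 at EPSC-marked start sites, 0.59 over all start sites and 0.42 at those covered in all 3 states. H3K4me1 in ESCs, D-EPSCs and L-EPSCs lay over the first base of 3.75%, 24.4% and 34.1% of the 9931 CpG-rich start sites. At the other 12391 start sites the shares were 17.5%, 27.7% and 29.9%.

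**Figure D4:**
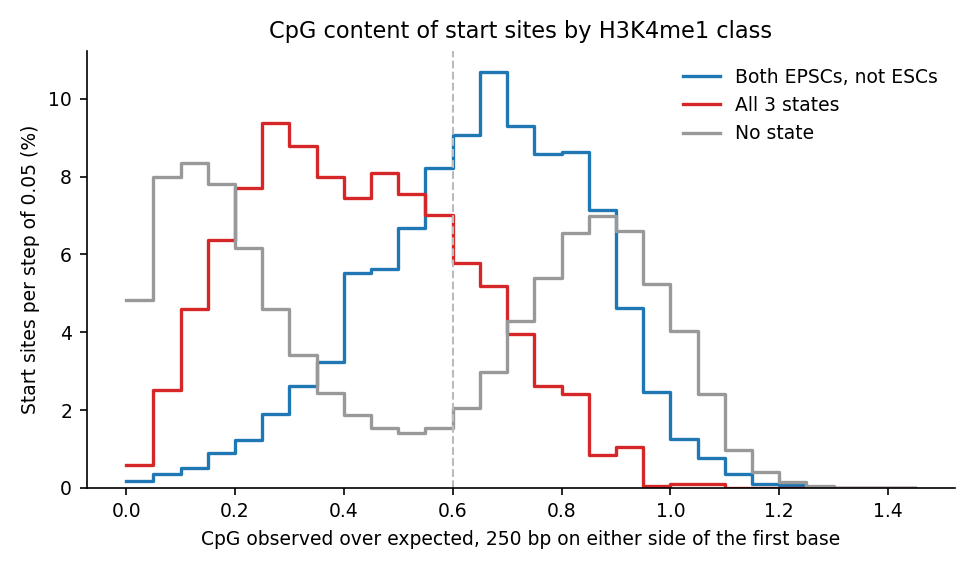
Distribution of the CpG observed over expected ratio in the 501 bp around the first base (x axis), as percent of start sites per step of 0.05 (y axis), for EPSC-marked start sites, start sites under H3K4me1 in all 3 states and start sites in no state. The dashed line marks the threshold of 0.6. EPSC-marked start sites form a single hump with a median of 0.67, whereas start sites in no state form a low and a high hump.

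CpG-rich promoters showed the contrast in acetylation with start sites under H3K4me1 in no state most plainly. The 1856 CpG-rich EPSC-marked start sites were acetylated at 12.4%, 13.2% and 9.32% in ESCs, D-EPSCs and L-EPSCs. The 6334 CpG-rich start sites under H3K4me1 in no state were acetylated at 42.7%, 59.1% and 41.5%. Low acetylation was not particular to EPSC-marked start sites. The 362 CpG-rich start sites covered in all 3 states were at 4.42%, 3.59% and 2.76%. The 1166 marked in L-EPSCs alone were at 27.5%, 34.1% and 24.1%. Among promoters that were not CpG-rich, the order of EPSC-marked start sites and those in no state was the other way round. There 24.8%, 17.0% and 13.1% of 1417 EPSC-marked start sites were acetylated, against 4.52%, 4.85% and 3.41% of 8083 in no state. Olfactory receptor genes made up part of the 8083. Of these 1113 genes, which are active in sensory neurons, none was CpG-rich or EPSC-marked, and H3K4me1 lay at the first base of 5, 4 and 5 in ESCs, D-EPSCs and L-EPSCs.

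Short sequences bound by promoter factors were counted in the 300 bases from 250 before to 50 after the first base, on both strands. None of the 9 motifs contains another. The GC box, GGGCGG, the core of sites bound by Sp1 and related factors, was found at 60.3% of EPSC-marked start sites and 43.5% of all start sites. Within CpG-rich promoters the shares were close, at 74.7% and 75.5%. The letters CCGGAAG of ETS factors were less frequent than in all promoters (7.91% and 10.8%), and the difference was wider within CpG-rich promoters (8.41% and 19.0%). The NRF1 letters CGCATGCG (1.89% and 4.25%) and the YY1 letters AAGATGGCG (0.862% and 3.25%) also had lower shares in CpG-rich EPSC-marked promoters than in all CpG-rich promoters. The TATA box, TATAAA, had a higher one (7.11% and 4.88%). The CCAAT box, CCAAT, was found at 34.0% of EPSC-marked and 37.9% of all promoters, and at 32.9% and 36.9% of the CpG-rich ones. The ZNF143 core ACTACAA was found at 2.87% and 3.66%, and at 2.10% and 3.55% of the CpG-rich ones. The E box CACGTG was found at 9.53% and 7.78%, and at 12.1% and 11.3% of the CpG-rich ones. The cAMP response element TGACGTCA was found at 2.60% (exact 95% interval 2.08 to 3.20%, which holds the 2.33% of all promoters), and at 2.75% and 3.82% of the CpG-rich ones. These are matches of letters and not measured binding, and all promoters include the EPSC-marked ones.

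The genes were then read by 29 lists of pathways and families. The highest share of EPSC-marked start sites was that of germ layer regulators. Of 25 germ layer regulators 15 were EPSC-marked (60.0%, beside 14.7% of all start sites). The lists of formative and primed epiblast genes (6 of 16), Hox genes (13 of 39) and primitive endoderm regulators (3 of 12) also lay above 14.7%. So did pluripotency factors (7 of 30), solute carriers (81 of 353), trophoblast regulators (3 of 15) and receptor genes named Gpr (18 of 95). Glycolysis was the exception among metabolic lists, with 8 of 20. Lists of housekeeping genes lay below. The cytoplasmic ribosomal proteins had 1 of 80, the translation initiation factors 3 of 57, the proteasome subunits 3 of 39 and the respiratory chain subunits 7 of 82, and none of 51 splicing factors was EPSC-marked. The lists are small and were not tested.

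**Figure D5:**
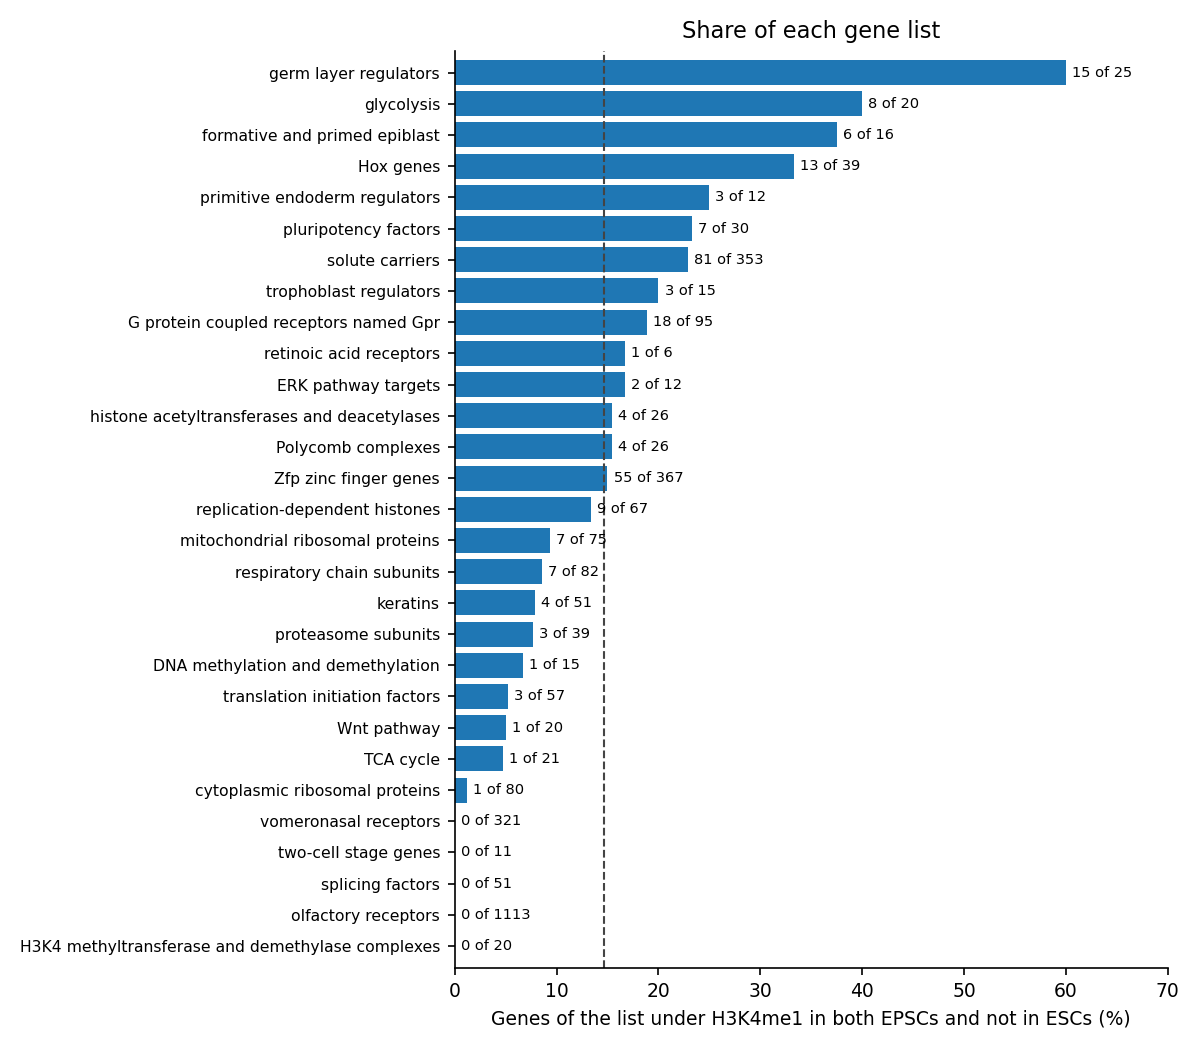
Share of each of 29 gene lists whose start sites were under H3K4me1 in both EPSCs and not in ESCs (x axis, percent), with the number of EPSC-marked start sites and of genes found in the annotation beside each bar. The dashed line marks 14.7%, the share of all start sites. Germ layer regulators are highest, at 15 of 25, and 5 lists have none.

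The EPSC-marked germ layer regulators were transcription factors that direct early lineages. They were T, Mixl1, Gsc and Mesp1 of the primitive streak and mesendoderm, Neurog1, Neurog2, Olig2, Nkx2-2, Lhx2, Isl1, Lbx1 and Pax3 of the nervous system and its derivatives, and Myod1, Gata2 and Dlx5 of muscle, blood and skeleton. None of the 15 had H3K27ac within 1 kb in any of the 3 states. At T (brachyury, ENSMUSG00000062327.3, chromosome 17, first base 8627288), the ESC gap was 1158 bp, from 856 bp upstream to 303 bp downstream, and single peaks of 2879 bp and 2794 bp in D-EPSCs and L-EPSCs covered the start. At Gsc the ESC gap was 1092 bp and the EPSC peaks were 8105 and 6833 bp wide. Mixl1 differed from these in having no ESC H3K4me1 within 23.0 kb upstream or 41.7 kb downstream. Its EPSC peaks were 1277 and 1703 bp wide. Mesp1 lay at the limit of the selection, 8 bp inside the end of an EPSC peak. In the whole list, H3K4me1 covered the first base of 3, 18 and 22 genes in ESCs, D-EPSCs and L-EPSCs, and H3K27ac that of 1, 0 and 0.

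The 13 EPSC-marked Hox genes, which pattern the body axis, likewise had no H3K27ac at the first base in any state. This was nearly so for the whole list, with 0, 1 and 0 of 39 acetylated in ESCs, D-EPSCs and L-EPSCs. The 3 EPSC-marked Hox genes that lay deepest under EPSC H3K4me1 were Hoxb9, Hoxd13 and Hoxc12, with ESC gaps of 1047, 1286 and 1245 bp. Hoxc12 had H3K27ac within 1 kb in ESCs alone. Of the formative and primed epiblast genes, Fgf5, Pou3f1, Foxd3 and Grhl2 had no H3K27ac within 1 kb in any state. Etv4 had it at the first base in D-EPSCs alone, and Nodal, a TGF-beta family ligand, in all 3 states. Within 1 kb, Etv4 had it in ESCs and D-EPSCs. The Nodal start lay 82 bp inside the end of an EPSC peak, and its H3K27ac peaks spanned 20985, 10213 and 7004 bp in ESCs, D-EPSCs and L-EPSCs. Of the trophoblast regulators, Eomes, Ascl2 and Krt18 were EPSC-marked (3 of 15, or 9 of 15 when any transcript start was counted), none with H3K27ac at the first base. In that whole list, 2, 1 and 2 of 15 were acetylated there in ESCs, D-EPSCs and L-EPSCs. The ESC H3K4me1 peak ended 27 bp upstream of the Eomes start, and H3K27ac lay within 1 kb of that start in ESCs alone. Lama1 and Lamb1, laminin chains of the primitive endoderm basement membrane, and Gata6 made up the primitive endoderm genes (3 of 12, or 6 of 12 with any transcript start), also without H3K27ac at the first base. In that whole list, 1, 0 and 1 of 12 were acetylated there in ESCs, D-EPSCs and L-EPSCs. Within 1 kb, Lama1 had H3K27ac in ESCs alone.

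Most EPSC-marked glycolysis genes were acetylated in ESCs. In the whole list, H3K27ac lay at the first base of 13, 9 and 6 of 20 genes in ESCs, D-EPSCs and L-EPSCs. It lay at the first base of 7 of the 8 EPSC-marked genes in ESCs, of 4 in D-EPSCs and of 4 in L-EPSCs. The 7 were Aldoa, Aldoc, Tpi1, Gapdh, Eno1, Ldhb and the glucose transporter gene Slc2a3. Eno2, a neuronal enolase, had none within 1 kb in any state. Gapdh, Eno1 and Slc2a3 were acetylated in all 3 states, Aldoa in ESCs and D-EPSCs, and Ldhb in ESCs and L-EPSCs. Aldoc (ENSMUSG00000017390.9, chromosome 11, first base 78136470) and Tpi1 were acetylated in ESCs alone at the first base. The ESC H3K27ac peak was 2561 bp wide at Aldoc, and no H3K27ac lay within 1 kb there in either EPSC. At Tpi1, H3K27ac lay within 1 kb in D-EPSCs too. Several of these genes were near the limit of the selection. The ESC H3K4me1 peak ended 3 bp upstream of the Aldoa start and 23 bp upstream of the Aldoc start, and the starts of Tpi1, Eno1 and Gapdh lay 19, 34 and 94 bp inside the end of an EPSC peak. Ldhb was 5380 bp inside. When any transcript start of a gene was counted, 11 of 20 met the selection.

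Of 30 pluripotency factors, 7 were EPSC-marked (23.3%, beside 14.7% of all start sites). In each state 4 of the 7 were acetylated at the first base, but not the same 4 throughout. Pou5f1 (Oct4, ENSMUSG00000024406.9, chromosome 17, first base 35642982) lay under wide H3K27ac in all 3 states, of 16500 bp, 9900 bp and 9677 bp in ESCs, D-EPSCs and L-EPSCs. The ESC H3K4me1 peak ended 600 bp upstream of its start, and the EPSC peaks, 13240 and 11013 bp wide, continued to 389 bp or more past it. Dppa5a and Gdf3 were also acetylated in all 3 states. Prdm14, a repressor of differentiation genes in naive cells, lay at least 3656 bp inside both EPSC peaks and was acetylated at the first base in ESCs and L-EPSCs. In D-EPSCs H3K27ac lay within 1 kb of it but not at it. Lin28a and Tcfap2c had no H3K27ac at the first base in any state. Within 1 kb, Lin28a had it in ESCs and D-EPSCs, and Tcfap2c in no state. Dppa4 was acetylated at the first base in D-EPSCs alone, and there the first base was the last base of the D-EPSC H3K4me1 peak. Within 1 kb, Dppa4 had H3K27ac in ESCs and L-EPSCs too.

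Lists of chromatin regulators lay near or below the 14.7% of all start sites. The Polycomb list had 4 of 26 (15.4%; Jarid2, Phf1, Phf19 and Cbx6), the histone acetyltransferases and deacetylases 4 of 26 (15.4%; Hdac10, Sirt1, Sirt5 and Sirt6) and the DNA methylation genes 1 of 15 (6.67%), the dioxygenase gene Tet3 (5 of 15 with any transcript start). None of 20 genes of the H3K4 methyltransferase and demethylase complexes, which write and erase the mark, was EPSC-marked. Sirt1 was acetylated at the first base in ESCs alone, and Sirt5, Sirt6 and Jarid2 in all 3 states. Among signalling genes, Rnf43 was the only EPSC-marked gene of 20 in the Wnt list. Fosl1 and Ier3 were those of 12 ERK targets and Rxra that of 6 retinoic acid receptors, both 16.7% and near the share of all start sites. None of these 4 had H3K27ac at the first base in any state, like 77.4% of EPSC-marked start sites. Within 1 kb, Ier3 and Rnf43 had it in ESCs alone. None of 11 two-cell stage genes found in the annotation was EPSC-marked.

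Among the larger families, 81 of 353 solute carrier genes (22.9%), which encode membrane transporters, were EPSC-marked. Of the 81, 17, 11 and 8 were acetylated at the first base in the ESC, D-EPSC and L-EPSC lists. In the whole solute carrier list, 79, 69 and 56 of 353 were acetylated there. Of 367 genes of the Zfp zinc finger family 55 (15.0%) were EPSC-marked, which is close to all start sites. Of the 55, 16, 13 and 8 were acetylated in the same order, beside 147, 138 and 92 of all 367. Replication-dependent histone genes (9 of 67) were acetylated at 5, 6 and 6 of the 9, beside 30, 49 and 48 of all 67. Of 95 orphan and adhesion receptor genes named Gpr, 18 were EPSC-marked and 1 of these was acetylated, Gpr126, in ESCs alone. In the whole Gpr list, 7, 4 and 3 of 95 were acetylated in ESCs, D-EPSCs and L-EPSCs. Mitochondrial ribosomal proteins (7 of 75) and keratins (4 of 51) lay below the share of all start sites, and 1 of 21 TCA cycle genes, Sucla2, was EPSC-marked. Rpl18 was the EPSC-marked cytoplasmic ribosomal protein gene. Psmb8 and Psmb9, subunits of the immunoproteasome, were among the 3 EPSC-marked proteasome genes. H3K27ac lay at the first base of 1 of the 3 in each state, and not at that of Psmb8 or Psmb9. Psmb9 appears in the annotation as a pair of gene models that start 12 bp apart, and both models met the selection.

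Single genes were named by how deep the start lay under H3K4me1, that is, by the distance from the first base to the nearer end of the EPSC peak, in whichever EPSC it was smaller. Of the 1786 flanked start sites, the deepest was Grhl3, an epithelial transcription factor (ENSMUSG00000037188.7, chromosome 4, first base 135129545). Its start lay at least 10620 bp inside EPSC peaks of 23277 bp (D-EPSCs) and 22965 bp (L-EPSCs), and ESC peaks lay 220 bp upstream and 785 bp downstream, so that a gap of 1004 bp was all that separated it from ESC H3K4me1. It had no H3K27ac at the first base in any state, though H3K27ac lay within 1 kb in ESCs. Next came Tbc1d24, Alpl, Katnal2, Icam5 and Bcat2, with ESC gaps of 640 to 1335 bp. Alpl, which encodes the alkaline phosphatase used as a stain for pluripotent cells, was acetylated in all 3 states, under peaks of 17156 bp, 1178 bp and 1231 bp in ESCs, D-EPSCs and L-EPSCs. Bcat2, a mitochondrial aminotransferase gene of branched-chain amino acids, was also acetylated in all 3 states. Icam5 had no H3K27ac within 1 kb in any state.

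The 503 start sites without ESC H3K4me1 within 5 kb were led by Evc, Adamts1, Creb5, Evc2, Npr1 and Fam46a. Evc and Evc2 encode partner proteins of the primary cilium and start 1584 bp apart on opposite strands of chromosome 5, under the same EPSC peak of 4972 bp and 4390 bp in D-EPSCs and L-EPSCs. They are therefore not independent of each other. The nearest ESC H3K4me1 lay 5688 bp downstream of Evc and 7272 bp upstream of Evc2. At Adamts1, a secreted metalloproteinase gene, the nearest ESC peaks were 265 and 253 kb away, and at Fam46a 158 and 395 kb. Of the 6 genes, Creb5 alone had H3K27ac within 1 kb, at the first base in L-EPSCs and nearby in D-EPSCs. The other 5 were CpG-rich promoters.

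H3K27ac at the first base in both EPSCs with none within 1 kb in ESCs was found at 20 EPSC-marked start sites (0.611%, beside 1.03% of all start sites). The deepest was Cnn2, which encodes the actin-binding protein calponin 2 (ENSMUSG00000004665.4, chromosome 10, first base 79451329). Its H3K27ac peaks were 679 bp (D-EPSCs) and 711 bp (L-EPSCs) wide, wider than the ESC H3K4me1 gap of 607 bp over its start. Smyd2, a lysine methyltransferase gene, had H3K27ac peaks of 763 and 741 bp, and Aard of 560 and 1407 bp. B3galt4, Telo2 and D8Ertd82e completed the 6 deepest. All 6 were CpG-rich and had ESC H3K4me1 within 2 kb on both sides. The converse, H3K27ac at the first base in ESCs with none within 1 kb in either EPSC, was found at 95 start sites (2.90%, beside 2.32% of all start sites). These counts also followed the length of the lists. With lists of equal number they were 64 (1.95%, beside 5.01% of all start sites) and 65 (1.99%, beside 1.48%). With equal covered bases they were 132 (3.63%, beside 9.25%) and 13 (0.358%, beside 0.269%). The 6 deepest acetylated in ESCs alone were Esrp2, Sfxn3, Lama5, Sfrp1, Plekha2 and Spsb2. Their ESC H3K27ac peaks were 2740 to 6919 bp wide. Esrp2 is a splicing regulator of epithelial cells, Lama5 a laminin chain and Sfrp1 a secreted Wnt antagonist, and at each of them a single EPSC H3K4me1 peak of 4080 bp or more covered the start in both states.

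EPSC-marked start sites were found on every chromosome examined. They made up 11.5% (chromosome 14) to 19.2% (chromosome 15) of the start sites of single autosomes and 4.30% of those of chromosome X (40 of 930). Of the X-linked start sites 24.9% were CpG-rich, and H3K4me1 lay at the first base of 1.08%, 6.88% and 9.25% in ESCs, D-EPSCs and L-EPSCs. A start site on the opposite strand lay within 1 kb of 7.42% of EPSC-marked start sites, compared with 10.9% of all start sites.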

How the data were processed

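ChIP-seq of H3K4me1 and H3K27ac was performed by the authors in 15 samples. Per the study's methods and processing notes, the authors trimmed reads (Trim Galore 0.6.3), aligned them to mm9 (Bowtie2 2.3.5), handled alignments with SAMtools 1.10 and called broad MACS2 peaks relative to input. Each of the 6 deposited files gives chromosome, start, end and name of the peaks of 1 mark and state, with starts counted from 0. No count, score or signal was used, depth is unknown, and thresholds and pooling of samples are not stated in the sources used here.

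The members and the gene lists were chosen with earlier results of these data known. The 5′ ends of protein-coding genes on chromosomes 1 to 19 and X gave 22322 distinct start sites, since 28 genes share a first base with another. Of 280 listed symbols 5 were not found. CpG content, motifs and sequences were read from NCBIM37. Named genes were the 6 deepest of each of 4 sets (flanked within 2 kb, no ESC H3K4me1 within 5 kb, H3K27ac in both EPSCs alone, H3K27ac in ESCs alone), passing over unnamed gene models, all members of the symbol lists and the 3 deepest of each family defined by a symbol pattern. The exon-free condition for printed sequences, gaps at start sites covered in no state, and acetylation in ESCs or EPSCs alone and CpG content of all classes under other settings were chosen after seeing the data.

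With 1 list per state and mark no test between states was made. Groups came from the sample labels. Alternatives changed peak width, list length, margin, joining of peaks, choice of start site, distances and CpG thresholds. Interval code was tested on simulated data (200 sets of lists, 0 errors). Python 3.11.15, numpy 2.4.6, scipy 1.17.1 and matplotlib 3.10.9 were used.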

Additional observations from a re-analysis of the deposited data

How the results depend on the processing

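The 6 main values were the number of EPSC-marked start sites, their H3K27ac share per state, the share flanked by ESC H3K4me1 and the CpG-rich share. Of 55 alternatives 26 left them within the exact 95% interval (or within 1.5 times, for the number) and 29 moved them. Joining peaks within 1 kb raised the number to 5326, the H3K27ac shares to 27.1%, 28.7% and 19.0% in ESCs, D-EPSCs and L-EPSCs, the flanked share to 62.8% and the CpG-rich share to 71.6%. Peaks of at least 500 bp gave 13.0% H3K27ac in D-EPSCs, 9.83% in L-EPSCs and 42.3% flanked. The widest 50% of each list gave 15.8%, 10.4% and 8.59% H3K27ac in ESCs, D-EPSCs and L-EPSCs, 18.5% flanked and 58.5% CpG-rich. Lists of equal number gave 13.4% H3K27ac in ESCs and 51.3% flanked. Lists of equal covered bases gave 3.52% in ESCs, 8.17% in D-EPSCs, 11.6% flanked and 52.5% CpG-rich. H3K27ac within 1 kb was found at 29.4%, 24.0% and 19.2%. Flanks within 1 kb were found at 39.2% and within 5 kb at 61.7%. The CpG-rich share was 62.1% with a margin of 100 bp, 53.6% with any transcript start, 44.9% over 500 bp on either side and 32.1% above a ratio of 0.75. The cause of these moves was not tested, beyond the fewer or longer peaks that each alternative keeps. With any transcript start the counts of 9 of 29 gene lists moved by over 1.5 times, such as the trophoblast regulators (9 of 15) and the DNA methylation genes (5 of 15), and 6 of 9 motif shares moved with a window of 250 bp on either side.

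No paired analysis was possible because the 2 samples of a mark and state were given as 1 peak list, in which they cannot be separated. Depth and peak calls cannot be told apart from the culture condition in any difference between states.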
